A study of Mus musculus with 12 samples.

Results

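Bile duct ligation was compared with a sham operation in the livers of mice that lack factor VII-activating protease (FSAP, encoded by Habp2), a plasma protease made by hepatocytes. The comparison rests on 6 of the 12 arrays of the series, 3 from ligated and 3 from sham-operated FSAP-/- mice. They were taken by their titles. The 6 arrays of wild-type littermates entered the same fit, where they shared the estimate of the spread and allowed a test of whether a response differed between genotypes. All animals came from heterozygous crosses backcrossed to the BalbC strain to generation F3, were 20 to 30 weeks old and were killed 2 weeks after the operation. RNA from whole liver, 100 ng per sample with an integrity number of at least 7.2, was hybridised to one-colour mouse arrays. The labels state 3 mice per group, and give neither their sex nor the stretch of Habp2 that was deleted.

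Ligation of the common bile duct blocks the outflow of bile, so that bile acids and bilirubin are retained in the liver. In mice the operation is known to bring a ductular reaction, in which bile duct epithelium proliferates, an influx of myeloid cells, and the turning of hepatic stellate cells and portal fibroblasts into myofibroblasts that lay down collagen. Hepatocytes meanwhile carry the synthesis of bile acids, plasma proteins and urea and the metabolism of drugs, and most of the RNA of a liver is theirs.

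The probe for Habp2 read 4.97 to 5.50 on the 6 wild-type arrays, as log2 of the signal relative to the 75th percentile of the array, the scale of every level given here. On the sham FSAP-/- arrays it read -3.45, -6.74 and -6.72, and on the ligated ones -7.18, -6.98 and -6.95. It was well above background on 1 of the 6 FSAP-/- arrays, that of sham mouse 1, so every FSAP-/- array lay far below every wild-type array. Between 55.81% and 60.37% of spots were well above background on the 6 arrays, none was saturated, and the 75th percentile lay between 541.0 and 574.0 on sham arrays and between 667.8 and 987.2 on ligated ones. The array of sham mouse 1 stood apart: it was alone on its slide, its values carry fewer digits, and it lay at 60.47 on the second principal component (12% of the variance), against -36.56 to 12.55 for the other arrays. The ligated mice and sham mouse 3 shared a slide, and sham mouse 2 was on a further one. The Y-linked gene Ddx3y was well above background in sham mouse 1 (1.54) and ligated mice 1 and 2 (1.15 and 1.03) and at -6.59 or lower in the other FSAP-/- mice, and Xist had the opposite pattern, so each group held mice with and mice without Y-linked signal. None of the wild-type arrays showed Ddx3y above background. Hence a change within slide 3 and a change without the 3 arrays with Y-linked signal are given beside many results. The first rests on 1 sham array, and the second on 2 sham arrays and 1 ligated array. The sham mouse on slide 3 had no Y-linked signal, while ligated mice 1 and 2 had it. Effects of slide and of Y-linked signal thus cannot be told apart where a change differs within slide 3.

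Ligation altered a large share of the liver transcriptome in FSAP-/- mice. The test covered 18548 genes whose signal stood well above background on 3 or more of the 6 arrays, of which 7494 (40.4%) passed an adjusted p of 0.05 (limma, Benjamini-Hochberg). Among them 3064 genes (16.5% of those tested) rose and 4430 (23.9%) fell. The rises were larger: 2245 genes rose and 1767 fell by at least 1 on the log2 scale, 440 rose and 85 fell by at least 3, and 53 rose and 22 fell by at least 5. All 3 ligated arrays lay outside the range of the 3 sham arrays for 8971 genes (48.4%), above it for 3531 and below it for 5440. The median change over all genes tested was -0.17, and 90% of the changes lay between -1.40 and 2.26. With each array scaled to its median in place of its 75th percentile the median change was -0.37 and the share of rises among changed genes went from 40.9% to 28.0%. Under quantile normalization the median change was -0.09, with 3446 rises and 3870 falls, a share of 47.1%, so small falls are to be read against these shifts. Within slide 3, 2040 genes rose and 2260 fell, and 4035 of the 7494 genes were called in the same direction.

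The direction of change went with the level of a gene. With genes in 4 equal classes by mean level over the 6 arrays, 23.2% of the lowest class rose and 15.3% fell, while in the highest class 6.75% rose and 36.5% fell. The median change was -0.06 in the lowest class and -0.31 in the highest. Among the genes tested, 552 were not well above background on any sham array and 123 were not so on any ligated array. The filter admits such a gene only where all 3 arrays of the other group are well above background, so its direction follows from the filter. An adjusted p printed for such a gene belongs to its fitted value and is no separate support for the direction. For such genes a fold change is given as a lower bound ("at least"), while list medians, unless given with bounds, and differences between genotypes hold fitted values, which are no bounds. Fitted changes of genes well above background on 1 array of the dimmer group also rest partly on values at background. Among them were the rises of Mmp7, Thbs1, Tgfb2, Krt7, Sox9, Chil3, Plk1, Pmaip1 and Psat1. So were the falls of Slco1a1, Sult2a7, Mmd2, Hsd3b5, Serpina4-ps1 and Mup-ps15. The SD between mice had a median over genes of 0.236 in the sham group and 0.282 in the ligated group.

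**Figure D1:**
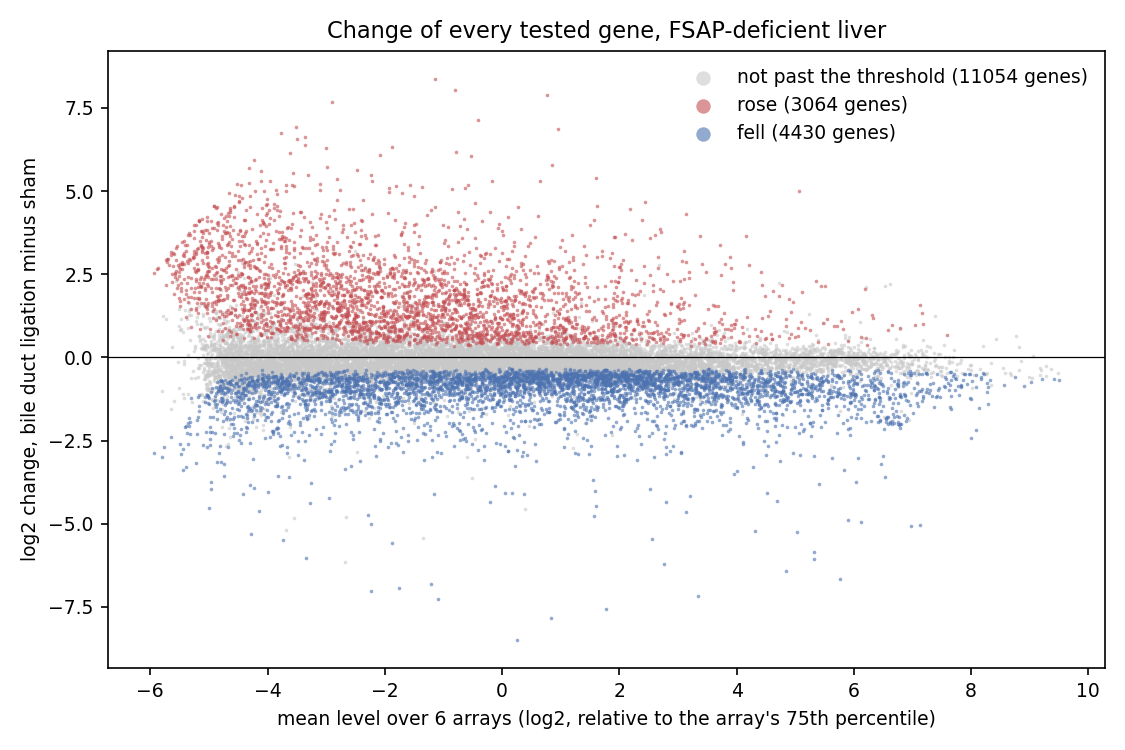
Log2 change between ligated and sham FSAP-/- livers (vertical) against the mean level over the 6 arrays (horizontal, log2 relative to the 75th percentile of the array), 1 point per gene tested. The 3064 genes that rose lie mostly at low and middle levels and reach 8.38, while the 4430 that fell dominate at the right, where levels are highest.

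The genes with the largest rises included Ubd, Dmbt1 and Cib3. Ubd encodes FAT10, a ubiquitin-like protein induced by inflammatory cytokines. Its level was -5.61, -4.56 and -5.83 in the sham mice and 4.45, 2.00 and 2.69 in the ligated mice. No sham array was well above background, so its direction follows from the filter, and the gene was at least 240-fold higher after ligation. Dmbt1, a secreted scavenger receptor of mucosal epithelia and reactive bile ducts, went from -3.99, -3.82 and -6.66 to 2.05, 3.77 and 3.83. Its log2 change was 8.04 ± 1.58 (SE; adjusted p = 0.00228). Cib3, a calcium- and integrin-binding protein, rose by 7.90 ± 0.68. Ccn5, a matricellular protein of the connective tissue growth factor family, was at least 59.5-fold higher, the neutrophil attractant Cxcl5 at least 29.7-fold, and Gpnmb, a transmembrane glycoprotein of lipid-laden macrophages, at least 23.3-fold. The monocyte attractant Ccl8 was at least 26.4-fold higher, and Lrtm2 and Gipc2 at least 30.0-fold and 27.4-fold. The genes with the largest rises and falls were picked among those whose groups did not overlap, so that separation is no further result. Mmp7, a metalloproteinase of injured epithelium, rose by 6.33 ± 0.61.

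Ly6d, a surface protein of lymphoid and stratified epithelial cells, stood at -3.82, -2.32 and -1.29 in sham mice and at 6.14, 4.87 and 2.18 in ligated mice. Its rise of 6.88 ± 1.12 was larger in the ligated mice with Y-linked signal than in the third, and without the arrays with that signal the change was 3.99 and did not pass the threshold (adjusted p = 0.0542). Timp1, the secreted inhibitor of matrix metalloproteinases, behaved the other way: the third ligated mouse read 5.52 against 1.96 and 1.99 in the first and second.

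The genes with the largest falls included several major urinary proteins, which the liver secretes, Pax2 and Serpina4-ps1. Mup21 read 8.15, 6.31 and 6.35 in sham mice and 2.76, -1.34 and -2.15 in ligated mice, a change of -7.19 ± 1.01 (adjusted p = 0.000317). Ligated mouse 1 kept far more of this transcript than the other ligated mice. The same order held for Mup2, at 9.33, 8.92 and 9.05 in sham mice and 6.25, 1.29 and -0.25 in ligated mice. Mup6 (-7.55), Mup2 (-6.67), Mup5 (-6.05) and Mup-ps15 (-7.03) are close copies of one another, and their probes may share transcripts. Car3, the muscle and liver carbonic anhydrase, was at 8.46, 7.58 and 6.92 in sham mice and 5.95, 1.83 and -0.51 in ligated mice. The ligated mice thus spread widely for both Mup2 and Car3, and among genes well above background on all 6 arrays the 5 with the largest SD in the ligated group were Mup19, Mup2, Car3, Mup9 and Mup5.

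Slco1a1, the sinusoidal uptake carrier for organic anions, fell by 6.93 ± 0.75 on the log2 scale. Sult2a8, a bile acid sulfotransferase of the mouse liver, fell from 6.18, 5.97 and 5.45 to 0.50, -0.72 and -0.78. Sult2a7 fell by 5.58 ± 0.89 and Mmd2 by 6.03 ± 0.66. Hsd3b5, a male-biased steroid reductase, read 6.37, 2.05 and -1.84 in sham mice and -2.30, -5.39 and -6.15 in ligated mice. The sham range was wide, and the change of -6.81 ± 1.67 became -2.77 within slide 3, where it did not pass the threshold. Mup6, Mup2 and Serpina4-ps1 (-7.25 ± 1.22) did not pass the threshold there either, at -6.89, -6.62 and -5.0. The brightest of 3 probes for Pax2, a developmental transcription factor, changed by -7.83 ± 1.13, while the other probes for it were not well above background on any of the 6 arrays. The plot of these genes shows each array on its own.

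**Figure D2:**
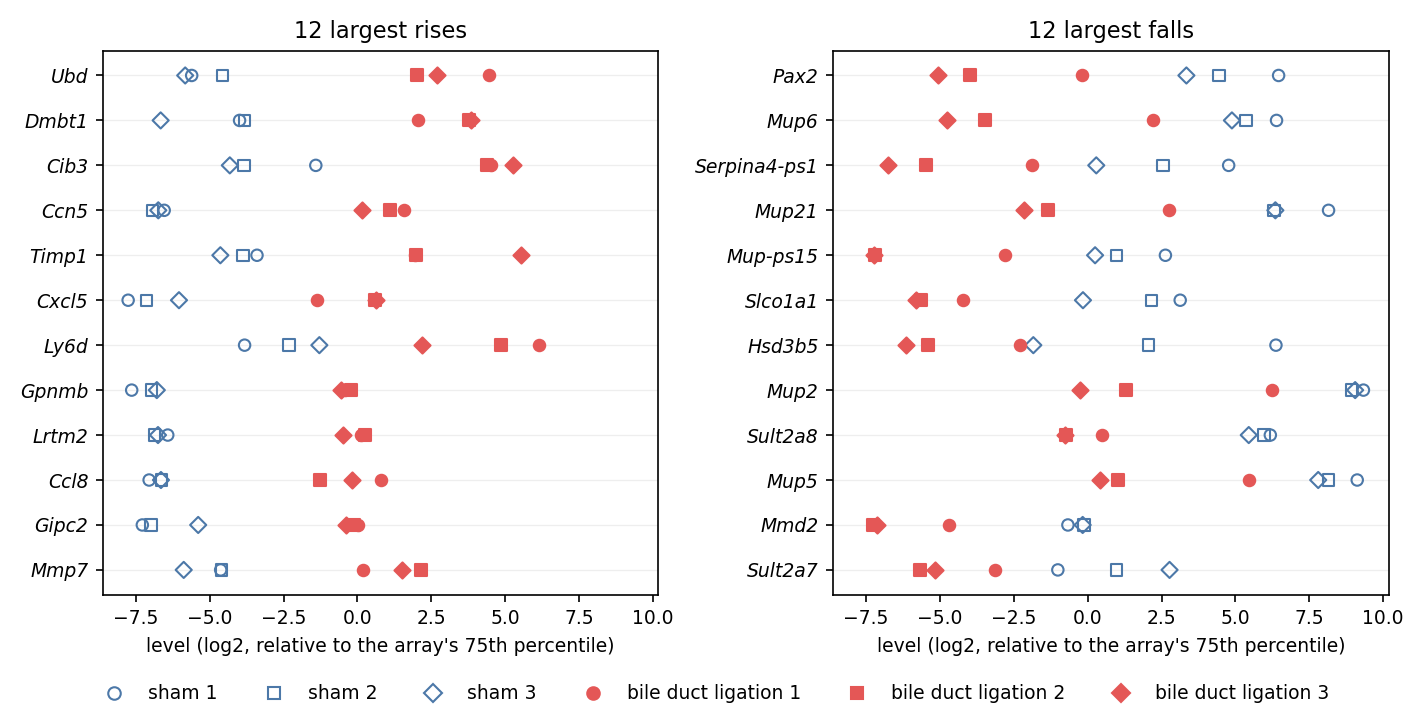
Level on each of the 6 FSAP-/- arrays (log2 relative to the 75th percentile of the array) for the 12 named genes with the largest rise and the 12 with the largest fall. Open blue symbols are sham mice and filled red symbols ligated mice, and among falls the ligated mouse 1 (red circle) is the highest of its group, as for Mup2 at 6.25.

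Counts of rises and falls in the gene lists below are to be read beside the 16.5% of all genes tested that rose and the 23.9% that fell. Fibrillar and other interstitial collagens rose together. Of 13 tested, 10 rose and none fell, with a median change of 2.58 (2.82 within slide 3). Col5a2, the second chain of type V collagen, was not above background in sham mice (-7.50, -6.72, -6.77). It reached -2.86, -3.09 and -0.43 after ligation, at least 7.06-fold higher. The third ligated mouse was again the highest, and the median of the list lay 2.57, 2.41 and 3.89 above the sham mean in the 3 ligated mice. Basement membrane genes moved less: 13 of 20 rose and 2 fell, with a median of 1.12 (0.98 within slide 3). Among the members that rose were Nid1, which links laminin to collagen IV (3.33 ± 0.19), and Col4a1 (3.20 ± 0.27). Col4a6 (-1.06) and Col18a1 (-0.52), the source of endostatin, fell. These and the other exceptions to a list's direction were picked after their values were seen.

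Other matrix genes followed. Among matrix glycoproteins and proteoglycans 22 of 32 rose and 2 fell, with a median of 2.01 (1.58 within slide 3). Spp1, osteopontin, rose from -0.76, -1.05 and -1.43 to 3.03, 4.57 and 5.29, a change of 5.38 ± 0.46. Thrombospondin 1 (Thbs1), an activator of latent TGF-beta, rose by 5.02 ± 0.86 and the calcification inhibitor Mgp by 4.39 ± 0.37. Vcan (-0.72) and Ecm1 (-1.19), a hepatocyte-made restraint on TGF-beta, fell. Vcan missed the threshold without sham mouse 2 (-0.56) and differed by 1.01 as the mean of all its probes, and Ecm1 missed it without ligated mouse 1 or 2 or sham mouse 2 or 3 (-1.13 to -1.05). Matrix-remodelling enzymes and inhibitors rose in 22 of 29 cases and fell in 2, with a median of 2.21, or 1.80 with genes at background in sham mice set to their lower bound. Adam8, a metalloproteinase of myeloid cells, rose from -4.09, -4.50 and -3.91 to 0.14, -0.29 and 2.45. Timp4 did not enter the test, being well above background on 2 of the 6 arrays. It read -6.36, -2.81 and -4.11 in ligated FSAP-/- mice and 2.51, 3.09 and 0.13 in ligated wild-type mice, with all sham mice at -6.59 or below.

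Myofibroblast genes and their growth factors rose as well. Of 20 stellate cell and myofibroblast markers 14 rose and none fell, with a median of 1.77 (1.60 within slide 3, where 9 rose). S100a6, a calcium-binding protein of activated stellate cells, rose by 3.97 ± 0.40. Actg2, enteric smooth muscle actin, was at least 6.13-fold higher, and did not pass the threshold within slide 3. In the TGF-beta, activin and PDGF list 16 of 28 rose and 1 fell, with a median of 1.03 (0.83 within slide 3). The ligand Tgfb2 read -5.08, -5.10 and -5.05 in sham and -1.06, -0.70 and -0.72 in ligated livers, a change of 4.25 ± 0.19 (adjusted p = 9.68e-07). It was well above background on 1 of the 3 sham arrays. The evenness of its sham values and the size of its change thus rest partly on values at background. Tgfb1 rose by 1.34 ± 0.28, and by 0.80 without the arrays with Y-linked signal, where it missed the threshold (adjusted p = 0.0946). The activin subunit Inhbb rose by 3.41 ± 0.30, the follistatin-like Fstl1 by 3.36 ± 0.58 and the receptor Pdgfrb by 1.97 ± 0.30. Inhbc, an activin subunit made by hepatocytes, fell by 1.50 on the log2 scale. In whole-liver RNA more cells of a type and more RNA per cell cannot be told apart, here and in what follows.

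Bile duct epithelium markers rose in 18 of 28 cases and fell in 3, with a median of 2.16 (2.23 within slide 3). The biliary keratin Krt19 rose from -2.54, -2.69 and -2.96 to 0.30, 1.56 and 0.52, a change of 3.52 ± 0.44. Krt7, its partner in ducts, rose by 4.21 ± 0.52, and the adhesion molecule Epcam was at least 7.42-fold higher. The second ligated mouse was the highest of its group for all 3 of these genes, and the median of the list was also highest there, at 2.42 against 1.96 and 1.95. Ddr1, a collagen receptor, was at least 27.9-fold higher. Ehf, an epithelial transcription factor, was at least 14.4-fold higher, and a further Ehf probe, well above background on 1 of the 3 sham arrays, differed by 2.76. Sox9, the transcription factor of biliary progenitors, read -2.08, -4.88 and -4.72 in sham mice and -1.49, -1.14 and -0.27 in ligated mice. Sham mouse 1 lay near the ligated range, and the change of 2.93 ± 0.64 was 4.54 without the arrays with Y-linked signal. The members that fell were Cftr (-1.86), the chloride channel of ducts, the anion exchanger Slc4a2 (-1.08) and the sodium pump subunit Atp1b1 (-0.64). Slc4a2 missed the threshold without ligated mouse 3 (-0.66) or sham mouse 1 or 2, and Atp1b1 without ligated mouse 1 or 3 or sham mouse 2 or 3.

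Myeloid genes rose. Of 35 macrophage and monocyte genes 32 rose and 1 fell, with a median of 2.62 (2.39 within slide 3). Trem2, the lipid receptor of scar-associated macrophages, went from -2.25, -1.92 and -1.86 to 1.69, 2.30 and 2.68, a change of 4.23 ± 0.34 (adjusted p = 1.48e-05). The endotoxin co-receptor Cd14 rose by 5.30 ± 0.60 and Cd68 by 3.06 ± 0.28. Clec4f, a marker of Kupffer cells, rose by 0.86 ± 0.24, and did not pass the threshold within slide 3 (0.73), without ligated mouse 1 (0.73) or without sham mouse 1 (0.65). In the sham group the list was lowest in sham mouse 1, at -0.38 against the sham mean.

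Neutrophil genes rose in 12 of 18 cases, none fell, and the median was 2.92 (2.12 within slide 3, where 7 rose, and 2.40 with bounds). Chil3 rose by 5.64 ± 1.03, the siderophore-binding Lcn2, which hepatocytes make too, by 5.0 ± 0.71, and the resistin-like Retnlg by 4.04 ± 0.52. S100a8, a subunit of calprotectin, was at -1.32, -0.31 and 0.84 in sham mice and 4.06, 2.14 and 3.02 in ligated mice. The groups did not overlap, but the change was 2.23 within slide 3 and did not pass the threshold there. Of 28 cytokines and chemokines 22 rose and 2 fell, with a median of 3.11, or 2.43 with bounds. The monocyte attractant Ccl2 rose from -4.52, -3.31 and -3.83 to 2.55, 2.07 and 2.29, a change of 6.19 ± 0.33 (adjusted p = 1.97e-06). The ligated mice lay close together for this gene, and the median of the list was also even, at 2.89, 3.07 and 3.01. Cxcl12 (-1.32), a chemokine of sinusoidal and stromal cells, and Il18 (-0.85) fell.

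Antigen-presenting cell genes rose in the FSAP-/- livers while lymphocyte genes showed no common direction. Of 14 MHC class II and antigen-presenting cell genes 10 rose and none fell, with a median of 1.68 (1.83 within slide 3). Cd74, the invariant chain, read 1.46, 2.50 and 2.05 in sham mice and 5.73, 4.93 and 3.79 in ligated mice. Ligated mouse 1 was the highest and mouse 3 the lowest for this gene. The median of the list lay 2.17, 1.35 and 1.57 above the sham mean in the 3 ligated mice, lowest in mouse 2. The Cd74 change of 2.81 ± 0.47 was 1.51 without the arrays with Y-linked signal. H2-DMb1, which loads peptides onto class II molecules, rose by 2.91 ± 0.42. The class II transactivator Ciita was well above background on 2 of the 6 arrays and was not tested, at -2.29, -5.04 and -4.37 in ligated mice and between -6.65 and -5.94 in sham mice.

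Of 20 T and NK cell genes 5 rose and 2 fell, and the median of 0.52 was 0.31 within slide 3, where none passed the threshold, and 0.01 without the arrays with Y-linked signal. Over all genes tested 16.5% rose and 23.9% fell. Ccl5, a chemokine of T cells, read -1.52, -0.56 and -1.06 in sham mice and 3.54, 0.72 and 0.83 in ligated mice. The rise of 2.74 ± 0.64 was 1.82 without ligated mouse 1. Gzmb, a granule protease, was at least 3.02-fold higher (adjusted p = 0.0384), and missed the threshold without any one of the 6 arrays other than ligated mouse 3. Zap70, the T cell receptor kinase, fell by 2.14 ± 0.47 on the log2 scale. Of 9 B and plasma cell genes none rose, and Tnfrsf13c and Mzb1 fell. Mzb1 (-1.12) kept its call without ligated mouse 1 or 2 only, and changed by -0.69 without mouse 3. Interferon-induced genes rose in 7 of 34 cases and fell in 1, where 16.5% and 23.9% of all genes did so. Their median lay 1.08 above the sham mean in ligated mouse 1 and at -0.09 and 0.06 in the others. Without the arrays with Y-linked signal their median turned from 0.38 to -0.23, with 4 rises and 7 falls. Cxcl10 rose by 2.20 ± 0.63, by 1.35 without ligated mouse 1, and missed the threshold without sham mouse 1 (1.66). Gbp2, at 2.15 ± 0.65, missed the threshold without sham mouse 1 (1.34) or without ligated mouse 1 (1.63).

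Cell cycle genes rose in all 3 ligated mice. Of 43 cell cycle and DNA replication genes 34 rose and 3 fell, with a median of 2.74 (2.67 within slide 3, and 2.15 with bounds). Mki67, the proliferation antigen, went from -4.07, -3.18 and -3.04 to 0.72, 1.09 and 1.20, a change of 4.43 ± 0.72 (adjusted p = 0.00072). Topoisomerase II alpha (Top2a) was not above background in sham mice (-7.21, -6.12, -5.65) and reached -1.91, -1.58 and -1.62, at least 9.43-fold higher. The mitotic kinase Plk1 rose by 4.72 ± 1.02. The 3 mice agreed closely for each of these, and the median of the list lay 2.65, 3.06 and 2.41 above the sham mean. Without the arrays with Y-linked signal 5 rose in place of 34, at a median of 2.18, and within slide 3 the number was 17. Cdc45 (-0.71), Tyms (-0.62) and Tk1 (-1.03), which serve DNA replication and thymidylate supply, fell. Tyms missed the threshold without any one array other than ligated mouse 3, and Cdc45 without ligated mouse 3 (-0.46) or sham mouse 2 or 3.

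Promoters of such genes often carry the CCAAT box, bound by NF-Y, and the cell cycle homology element TTTGAA. In RefSeq promoter windows (GRCm38.p6, the 250 bases before a start site, both strands searched), CCAAT was found in 28 of the 36 windows of 35 of these 43 genes (77.8%), against 33.8% of all 32851 windows. TTTGAA was found in 11 of the 36 (30.6%), against 16.0% of all. The windows of Top2a (chr11:99024190-99024439, minus strand) and Mki67 (chr7:135716380-135716629, minus strand) are shown 5′ to 3′ because these genes are described above and hold both motifs; capitals mark every CCAAT and TTTGAA on either strand, so that ATTGG and TTCAAA are the same motifs on the opposite strand. A match describes the letters only.
Top2a: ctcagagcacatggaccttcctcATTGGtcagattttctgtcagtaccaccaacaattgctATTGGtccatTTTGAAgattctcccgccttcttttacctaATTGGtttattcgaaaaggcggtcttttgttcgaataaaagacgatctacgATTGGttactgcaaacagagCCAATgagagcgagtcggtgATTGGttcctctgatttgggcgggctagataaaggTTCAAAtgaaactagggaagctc
Mki67: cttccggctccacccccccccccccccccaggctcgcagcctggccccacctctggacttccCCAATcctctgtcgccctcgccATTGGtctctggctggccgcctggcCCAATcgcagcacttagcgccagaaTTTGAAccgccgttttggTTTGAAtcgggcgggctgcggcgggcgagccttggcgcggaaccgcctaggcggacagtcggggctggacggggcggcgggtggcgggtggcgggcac

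Growth-arrest genes rose beside the cell cycle genes. Of 24 p53 targets and growth-arrest genes 15 rose and 1 fell, with a median of 0.91 (0.97 within slide 3). The cyclin-dependent kinase inhibitor Cdkn1a read -5.63, -4.81 and -4.92 in sham mice, where it was at background. It read 1.23, 0.89 and 0.80 in ligated mice, at least 60.6-fold higher. Further Cdkn1a probes, not well above background on any sham array, differed by 0.91 and 1.85. They were well above background on 1 and 2 of the ligated arrays. Phlda3, an Akt inhibitor induced by p53, rose by 4.01 ± 0.17, and the pro-apoptotic Pmaip1 by 3.62 ± 0.33. Ei24 (-0.65) fell. Of 28 genes of endoplasmic reticulum and integrated stress 5 rose and 6 fell, where 16.5% and 23.9% of all genes did so. Atf3 rose by 4.01 ± 0.41, asparagine synthetase (Asns) by 3.15 ± 0.72 and the serine synthesis enzyme Psat1 by 2.80 ± 0.39.

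Most lists of hepatocyte genes held more falls than rises. Of 25 hepatocyte markers 16 fell and none rose, with a median of -0.69. That median was -0.22 under quantile normalization, where 7 fell and 1 rose, so the smaller falls rest on the scaling. Fabp1, the fatty acid-binding protein of hepatocytes, was nearly constant among sham mice at 9.22, 9.17 and 9.22 and read 7.74, 6.59 and 6.02 after ligation, a change of -2.42 ± 0.34 (adjusted p = 0.000329). Cyp2e1, the ethanol-oxidising P450 of the central lobule, changed by -2.20 ± 0.20. Albumin (Alb), at 9.45, 9.87 and 9.88 in sham and 9.37, 9.20 and 8.68 in ligated mice, changed by -0.65 ± 0.22, and did not pass the threshold under quantile normalization (-0.14) or within slide 3 (-0.80), nor without ligated mouse 3 (-0.45) or sham mouse 2 or 3 (-0.58 each).

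Bile acid synthesis and conjugation lost 13 of 18 genes and gained 1, with a median of -0.91 (-0.92 within slide 3, where 7 fell). Cyp8b1, the sterol 12-alpha-hydroxylase that makes cholic acid, went from 2.31, 2.42 and 1.90 to -1.24, -2.73 and -1.65, a change of -4.08 ± 0.43 (adjusted p = 5.41e-05). Every ligated mouse lay far below every sham mouse. Cyp7a1, the rate-limiting enzyme of the classical pathway, read 2.00, 3.85 and 3.36 in sham mice and 3.02, 2.77 and 2.52 in ligated mice. Those groups overlapped, and its change of -0.30 ± 0.50 did not pass the threshold (adjusted p = 0.67) and had the opposite sign, 0.09, without sham mouse 2. Cyp7b1, of the alternative pathway, read 7.02 in sham mouse 1 and 3.37 and 3.02 in the other sham mice, against 2.35, 1.95 and 0.58 after ligation. Its change of -2.84 ± 0.88 was -1.57 without sham mouse 1. It missed the threshold within slide 3 (-1.39) and without ligated mouse 3 (-2.32). Ch25h, which makes the oxysterol 25-hydroxycholesterol in macrophages, was the member that rose, at least 3.78-fold.

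Among bile acid and organic anion transporters 4 of 24 rose and 10 fell, where 16.5% and 23.9% of all genes did so. The export pump Abcb11 was at 5.89, 5.79 and 5.97 in sham mice and 4.63, 4.92 and 4.13 in ligated mice, a change of -1.32 ± 0.18. The organic anion carrier Slc22a7 changed by -3.94 ± 0.51 and the sterol exporter subunit Abcg8 by -2.53 ± 0.44. The basolateral exporters Abcc4 (1.65 ± 0.46) and Slc51b (1.66 ± 0.30) rose, but changed by 0.86 and 0.93 within slide 3, where neither passed the threshold. Abcc4 also missed it without sham mouse 1 (1.19) or ligated mouse 3 (1.36). The brightest probe for the uptake carrier Slc10a1 changed by -0.38 ± 0.21, which did not pass the threshold and was 0.23 under quantile normalization, while a further probe for it differed by -2.69. Of 28 bile-sensing receptors and liver transcription factors 14 fell and 2 rose, and 7 fell within slide 3. Ppara, the fatty acid-sensing nuclear receptor, went from 4.31, 4.57 and 4.55 to 2.92, 2.16 and 1.98, a change of -2.12 ± 0.24. The vitamin D receptor Vdr was at least 1.56-fold higher. Nr0b2, the bile acid-induced repressor SHP, read 0.70, -0.52 and 0.12 against 0.25, -0.93 and -1.51 and did not pass the threshold.

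Drug-metabolising enzymes fell. Of 38 cytochrome P450 enzymes 23 fell and 1 rose, with a median of -1.77 (-2.29 within slide 3). Cyp2c68 went from 5.79, 7.91 and 8.22 to 4.41, 3.27 and 2.83, a change of -3.80 ± 0.58, though members of the Cyp2c family are close copies that a probe may not separate. Cyp3a11, the main bile acid- and drug-induced P450 of the mouse, read 8.02, 6.50 and 7.39 in sham mice and 7.91, 7.05 and 7.32 in ligated mice. These groups overlapped throughout, and its change of 0.12 ± 0.38 took the opposite sign with each array scaled to its median, with the mean of all probes, with the Y-linked level as a covariate, and without sham mouse 2 or ligated mouse 1. Cyp1b1, a P450 of stromal cells, was the member that rose, at least 7.13-fold. Of 23 sulfo- and glucuronosyltransferases 14 fell and 2 rose, with a median of -1.56. Sult5a1 fell by 4.33 ± 0.44 on the log2 scale, while Sult1e1, the estrogen sulfotransferase, rose by 4.65 ± 0.95 and did not pass the threshold within slide 3 (3.21). Of 29 NRF2 targets and glutathione S-transferases 8 rose and 8 fell, beside 16.5% and 23.9% of all genes, with a median of 0.24. Without the arrays with Y-linked signal 2 rose and 11 fell, with a median of -0.32. The numbers were 5 and 11 with arrays scaled to their median and 12 and 6 under quantile normalization. Gsta1 rose by 3.85 ± 0.97 and the heme oxygenase Hmox1 by 2.11 ± 0.45, while a further Hmox1 probe differed by 0.98. They missed the threshold without the arrays with Y-linked signal (Gsta1, 3.07) and within slide 3 (Hmox1, 2.31).

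Lipid metabolism fell on both the synthetic and the oxidative side. Of 24 cholesterol synthesis genes 13 fell and none rose, with a median of -1.55 (-2.04 within slide 3). Under quantile normalization 7 fell, and without the arrays with Y-linked signal 6 fell. Sc5d, a late desaturase of the pathway, went from 4.95, 4.75 and 5.17 to 3.50, 2.74 and 2.19. All 3 ligated mice lay below the sham mice, with mouse 1 least changed, as in the median of the list (-0.88, -1.86 and -2.05). Fdps and Tm7sf2 changed by -2.07 ± 0.70 and -2.06 ± 0.58, and both missed the threshold within slide 3 and without ligated mouse 3 (-1.72 and -1.71). Fdps also missed it without ligated mouse 2 or sham mouse 1 or 3. Of 32 fatty acid oxidation and ketogenesis genes 27 fell and none rose, with a median of -0.97 (the same within slide 3, where 18 fell). The acyl-CoA synthetase Acsl1 changed by -2.36 ± 0.18. Lipogenesis lost 14 of 21 genes and gained 2, with a median of -1.25. Thrsp, the lipogenic nuclear protein Spot 14, changed by -2.94 ± 0.61 and the desaturase Fads2 by -1.94 ± 0.30. The stearoyl-CoA desaturases were the exceptions: Scd2, the form of non-hepatocyte tissues, rose from -1.27, -1.42 and -1.40 to 1.73, 1.26 and 1.78, and Scd1 rose by 1.09. In lipoprotein handling 13 of 26 fell and 2 rose, with a median of -0.74, while under quantile normalization 6 fell and the median was -0.24. Lpl, the lipoprotein lipase of fat and macrophages, rose by 4.14 ± 0.35 and hepatic lipase (Lipc) changed by -1.68 ± 0.29.

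Genes of amino acid breakdown fell. Of 45 urea cycle and amino acid catabolism genes 37 fell and none rose, with a median of -1.19 (the same within slide 3, where 25 fell). Agxt, the glyoxylate aminotransferase, was at 6.94, 7.03 and 7.03 in sham mice and 4.74, 4.91 and 5.0 in ligated mice, a change of -2.12 ± 0.13 (adjusted p = 3.81e-06). The mice of each group nearly coincided for this gene. The S-adenosylhomocysteine hydrolase Ahcy changed by -2.61 ± 0.63, and glutamine synthetase (Glul), the ammonia trap of central hepatocytes, by -2.20 ± 0.28. Of 27 genes of glucose handling 13 fell and 5 rose, with a median of -0.67, while under quantile normalization 7 fell and 5 rose and the median was -0.21. Ppp1r3c, a glycogen-targeting subunit, changed by -2.81 ± 0.37, while Pkm, the pyruvate kinase of non-hepatocyte cells, rose by 2.92 ± 0.41 and hexokinase 2 (Hk2) was at least 8.20-fold higher.

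Every one of the 32 respiratory chain genes tested fell, against 23.9% of all genes. Their changes lay in a narrow band between -1.12 and -0.57, with a median of -0.88. The medians of the ligated arrays were -0.79, -0.78 and -1.05 against the sham mean. Sdhb, the iron-sulfur subunit of complex II, went from 6.50, 6.31 and 6.39 to 5.43, 5.34 and 5.06. Ndufb5 of complex I changed by -1.12 ± 0.13. The median stayed below 0 under each scaling, at -1.08 with arrays scaled to their median and -0.51 under quantile normalization, where 20 fell. Within slide 3 it was -0.78 and 19 fell. Ribosomal protein genes, abundant in every cell, had a median of -0.05 and 1 of 36 fell. Their median was 0.46 under quantile normalization, where 16 rose, so their direction depends on the scaling. Rpl10 was the member that fell (-0.43 ± 0.14), and its change was 0.17 under that normalization. It missed the threshold without ligated mouse 1 or 2 or sham mouse 1 or 3.

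**Figure D3:**
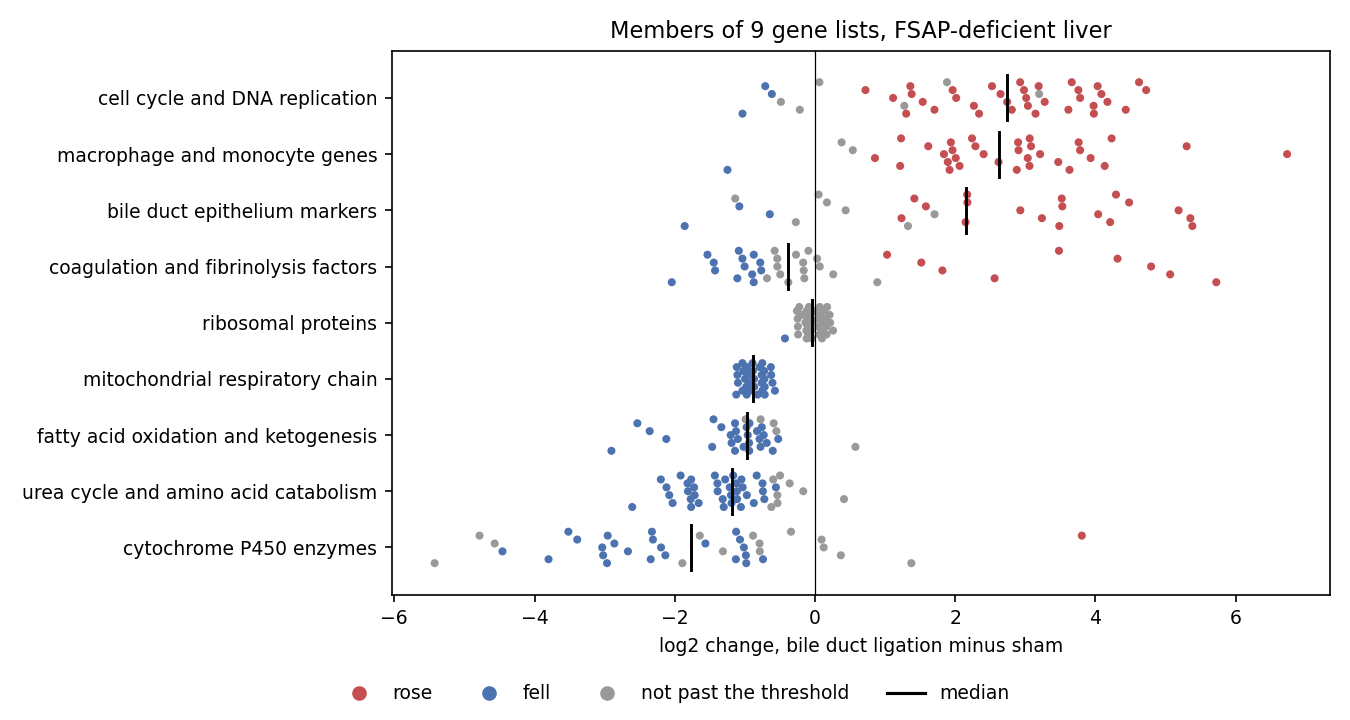
Log2 change between ligated and sham FSAP-/- livers for each tested member of 9 gene lists, with the list median as a black line and colour giving the call. The 32 respiratory chain genes fall in a band from -1.12 to -0.57, while coagulation factors spread to both sides of 0.

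Lists of plasma proteins held both rises and falls. Of 37 coagulation and fibrinolysis factors 9 rose and 13 fell, where 16.5% and 23.9% of all genes did so. Among those that fell were the hepatocyte-made F11 (-2.04) and F7 (-1.53), and among those that rose were genes that other cells make. F13a1, the transglutaminase subunit of macrophages, was not above background in sham mice (-6.82, -5.59, -5.14) and reached -1.12, -0.75 and 1.49, at least 28.2-fold higher. Plat, the tissue plasminogen activator, was at least 7.48-fold higher. Ligated mouse 3 was the highest for both genes. Of 27 complement genes 5 rose and 8 fell, beside 16.5% and 23.9% of all genes. The macrophage-made C1qb rose by 2.29 ± 0.27 and the receptor C3ar1 by 2.19 ± 0.24, while the members that fell included the lectin Mbl2 (-1.83). The medians of both lists took the opposite sign under quantile normalization, at 0.09 and 0.20. Of 31 acute-phase genes 9 rose and 6 fell, while 3 rose within slide 3 and 14 under quantile normalization. Orm3 rose by 3.69 ± 0.65. Saa1, a major acute-phase protein, read 4.24, 5.88 and 6.23 against 5.82, 9.06 and 7.95, overlapped between groups and did not pass the threshold (adjusted p = 0.0826). Hamp2, a copy of the iron hormone hepcidin, read 0.18 in sham mouse 1 and 5.0 and 5.59 in the others against -0.25, -0.79 and -0.22 after ligation.

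Further lists describe the other cells and states of the liver, beside 16.5% of all genes that rose and 23.9% that fell. Of 30 endothelial genes 9 rose and 1 fell, with a median of 0.32, and 4 rose within slide 3. Cd34, of capillaries and vessels rather than sinusoids, rose by 2.47 ± 0.34 and Vwf by 1.82 ± 0.26, while Oit3, of sinusoidal endothelium, fell (-0.85) but missed the threshold without ligated mouse 1 or sham mouse 2. Of 10 mesothelial and adipose genes 9 rose, with a median of 2.13. Msln, mesothelin, rose by 2.43 ± 0.32, and Upk1b was at least 4.02-fold higher. Adipoq and Plin1 were not above background, and the part of tissue outside the parenchyma was not tested. Of 10 erythroid genes 1 rose and 3 fell, and of 4 pancreatic acinar genes 1 fell. In the growth hormone axis 3 of 16 rose and 5 fell, near the 16.5% and 23.9% of all genes. The receptor Ghr changed by -1.95 ± 0.27, the ternary complex subunit Igfals by -2.41 ± 0.27 and Igf1 by -1.17 ± 0.22. Igfbp1, the stress-induced binding protein, rose from 1.89, 0.23 and 0.81 to 4.37, 4.41 and 7.10. Of 18 clock genes and outputs 6 fell, where 23.9% of all genes did so, among them Hlf (-1.71 ± 0.24) and Cry2 (-1.33 ± 0.24). The number was 2 within slide 3, 3 without the arrays with Y-linked signal and 11 with arrays scaled to their median.

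**Figure D4:**
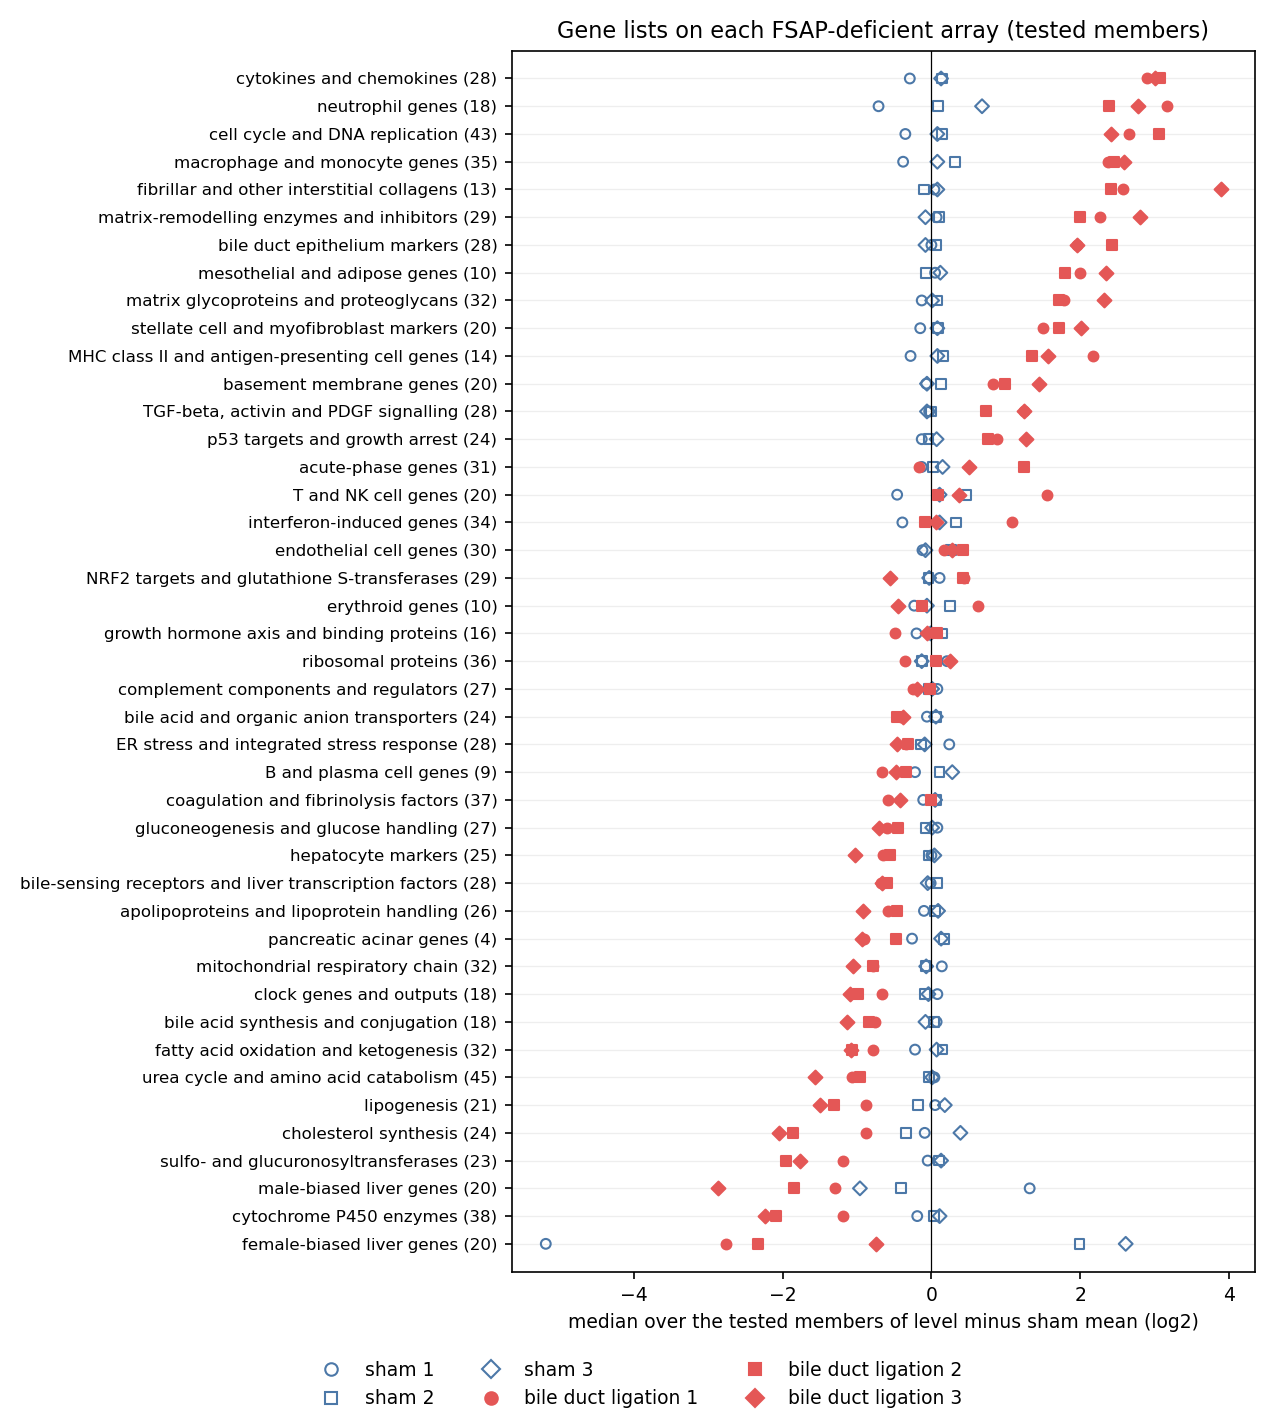
Median over the tested members of each gene list (number in brackets) of the level minus the sham mean (log2), for each of the 6 FSAP-/- arrays. Filled red symbols, the ligated mice, lie clear of the open blue sham symbols for the lists at the top and for most at the bottom, while sham mouse 1 lies at -5.18 for female-biased genes.

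Female-biased liver genes varied more among sham mice than any other list drawn in that plot. The 20 female-biased genes lay at -5.18, 1.99 and 2.61 against the sham mean in the 3 sham mice and at -2.76, -2.33 and -0.75 in the ligated mice. None passed the threshold, and the median change was -1.81. Without sham mouse 1, 14 of the 20 fell and the median was -4.59. Within slide 3 the median was -4.88. In both settings no sham mouse had Y-linked signal, while ligated mice 1 and 2 had it. Without the 3 arrays with that signal the median was -2.27. Cyp3a44, Sult2a2, Sult2a6 and Sult2a1, which were among the 5 genes with the largest SD among sham mice of those well above background on all 6 arrays, had the same pattern, for example -3.41, 5.58 and 5.88 for Cyp3a44. Of 20 male-biased genes 12 fell and none rose, with a median of -1.56. Without sham mouse 1 the median was -1.05, with 10 falls and 2 rises. It was -1.07 within slide 3 and -2.16 without the arrays with Y-linked signal. Y-linked signal and the slide of sham mouse 1 cannot be told apart in that mouse.

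The wild-type littermates answered the same operation with 6289 changed genes (33.9%) of the 18548, and log2 changes in the genotypes, which share no arrays but share slides, had r = 0.816 across genes, which are not independent replicates. A test of the difference itself, FSAP-/- minus wild type, passed the threshold for 2 genes (0.0108%), against 2592 at an unadjusted p under 0.05. Sema4d, a semaphorin of lymphocytes and macrophages, read -5.61, -4.89 and -5.68 in sham FSAP-/- mice and -1.72, -1.92 and -1.94 in ligated ones, at least 8.48-fold higher, while its change in wild-type livers was 0.45 ± 0.23. The difference was 3.08 ± 0.33 (adjusted p = 0.0193), but no sham FSAP-/- array was well above background, so its size rests on values at background, and it was 1.32 with normexp background correction (adjusted p = 0.0455). The unnamed locus LOC100041034 rose by 1.42 ± 0.14 and changed by -0.35 ± 0.14 in wild-type mice (adjusted p of the difference 0.0193). Neither kept its call with slide as a fixed block, nor without FSAP-/- sham mouse 1 or 3, FSAP-/- ligated mouse 1, wild-type sham mouse 1 or 3 or wild-type ligated mouse 1, and LOC100041034 lost it without wild-type sham mouse 2 as well. Without these arrays the difference was 2.90 to 3.11 for Sema4d and 1.67 to 1.82 for LOC100041034.

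The count depended on the setting: 400 genes passed with the Y-linked level as a covariate, 307 without the 3 arrays with Y-linked signal, and 0 to 45 without any one of the 12 arrays. With the covariate the class II genes H2-Ab1 (a difference of 3.74), H2-Eb1 (3.90) and Cd74 (3.66), Itgax (3.05) and Ccl8, which was at background on all sham arrays, were among those that passed. Without the 3 arrays Itgax (3.03, adjusted p = 0.044) and Ccl8 (adjusted p = 0.0361) passed, while H2-Ab1 (2.81, adjusted p = 0.0573), H2-Eb1 (2.90, adjusted p = 0.0562) and Cd74 (2.49, adjusted p = 0.0861) did not. With slide as a fixed block none of these 5 genes passed, with adjusted p of 0.101 to 0.236. The next genes with a symbol, in order of p, were the ubiquitin-conjugating variant Ube2v2, the kinase Map4k1, the polarity protein Pard6g and the integrin Itgax, with adjusted p of 0.0574 to 0.0835 for the difference. Itgax, the CD11c chain of dendritic cells and macrophages, rose by 4.13 ± 0.32 in FSAP-/- livers and changed by 1.08 ± 0.32 in wild-type livers. For Ube2v2 the brightest probe rose by 1.09 while a further one differed by -1.41. H2-Eb1 rose by 2.68 ± 0.49 in FSAP-/- livers and fell by 1.41 on the log2 scale in wild-type livers (adjusted p of the difference 0.0835). Genes called in opposite directions in the genotypes numbered 35 of 4667 called in both, among them Ccl5, Gzma, Gzmb, Cd3d, Lck, Gbp4 and Ifi44 (picked after their values were seen), and none of the differences passed the threshold. In FSAP-/- livers Cd3d and Lck missed the threshold without ligated mouse 1 (0.89 and 0.63) or sham mouse 1 (0.90 and 0.60), and Lck also without ligated mouse 3 or sham mouse 3. MHC class II genes had a median of 1.68 in FSAP-/- and -0.58 in wild-type livers, interferon-induced genes 0.38 and -0.74, and T and NK cell genes 0.52 and -1.11. Sham levels were not equal. H2-Ab1, H2-DMb1, Cd74, Ccl5, Gzmb, Zap70, Cxcl10, Gbp2 and Ifit2 all had a lower mean in sham FSAP-/- than in sham wild-type mice. The means were 2.41 and 3.34 for H2-Ab1 and -1.04 and 0.44 for Ccl5. A difference in change thus also holds a difference between the sham groups, which was not tested here. Interstitial collagens had medians of 2.58 in FSAP-/- and 1.76 in wild-type livers. In the same order the medians were 2.74 and 1.08 for cell cycle genes and 2.62 and 1.58 for macrophage genes. For acute-phase genes they were 0.63 and 1.36. Of all genes called in FSAP-/- livers 72.6% changed more there, and of those called in wild-type livers 58.4% changed more in wild type. No member of the collagen, cell cycle, macrophage or acute-phase lists passed the test of the difference. The wild-type arrays lay on slides 1 and 2 and the ligated FSAP-/- arrays on slide 3, and Y-linked signal was found on 3 FSAP-/- arrays and on no wild-type array.

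**Figure D5:**
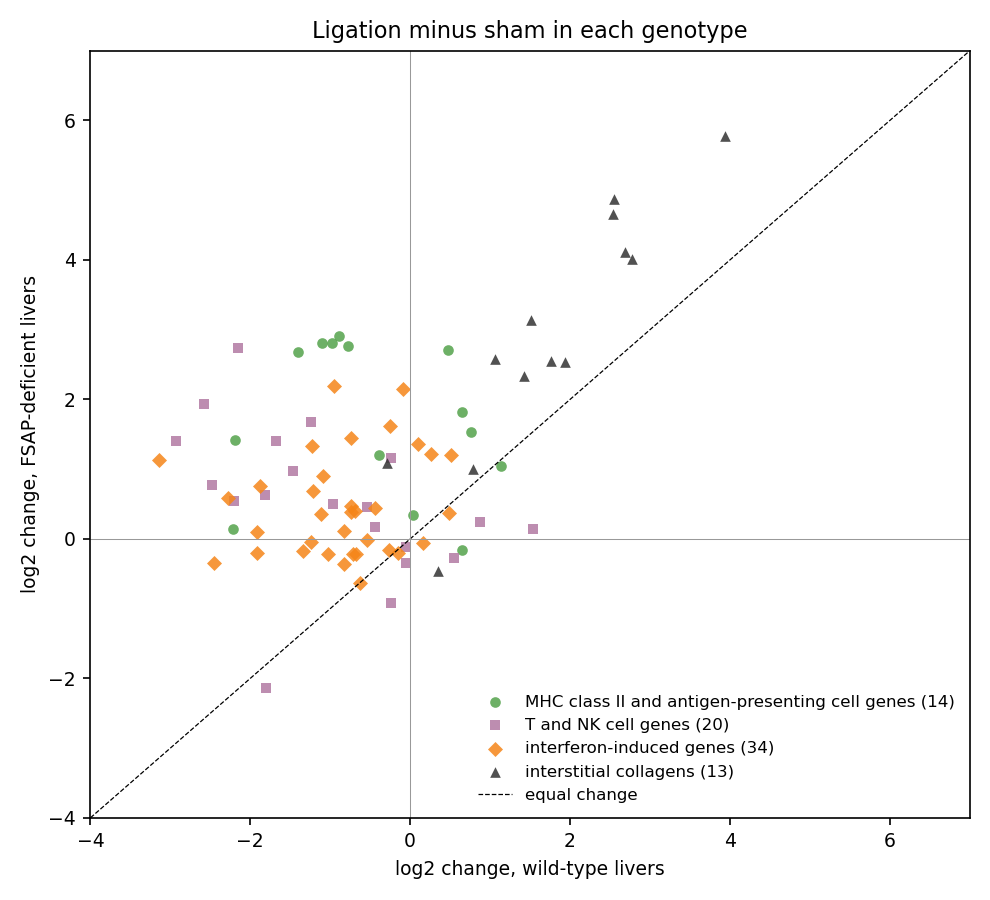
Log2 change between ligated and sham livers in FSAP-/- (vertical) and wild-type mice (horizontal) for the tested members of 4 gene lists, 1 point per gene, with the dashed line at equal change. Most collagens lie at the upper right, mostly above the dashed line and up to 5.78 and 3.94 for Col1a1, while several class II and T cell genes lie at the upper left.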

How the data were processed

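Liver RNA of 12 mice was hybridised to 12 one-colour arrays of 39429 probes. Per the file headers the scanner files were made with Agilent Feature Extraction 10.5.1.1, whose processed signal is an intensity after background subtraction and detrending within the array. No step between arrays is given in the sources used here. The deposited value table holds log2 values with column medians of 5.655 to 5.665, which correlated at 0.9989 to 0.9999 with the scanner values of the same arrays; its normalization and centring stay unknown, and it served as an alternative.

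From the intensities, outlier and control spots were left out, spots of a probe were averaged, log2 was taken, and each array's 75th percentile was subtracted. Probes were named from an array that carries names, matched by probe, because the file of FSAP-/- sham mouse 1 carries none. RefSeq accessions of 26412 of 33063 probes matched the RefSeq table (GRCm38.p6), and the brightest probe stood for a gene. Probe positions are mm9. Genes were tested where 3 or more of the 6 FSAP-/- arrays read well above background (18548 of 31693 names). One limma 3.58.1 model (R 4.3.3) with 4 group means, 8 residual degrees of freedom and moderated variances gave each change and the difference between genotypes, with Benjamini-Hochberg adjustment over all genes tested at 0.05. Where no array of the dimmer group read well above background, "at least N-fold" sets the brighter group's mean against, per array, the higher of the lowest signal well above background and the probe's own signal.

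The files do not say more of the replicates than that they are separate mice. On simulated data for the FSAP-/- comparison (18482 genes), 45% of 100 genes changed by 1 on the log2 scale and 82% of 100 changed by 2 were recovered, with 2 false calls. The simulation changed no other genes. Its noise was independent between genes and of the same SD in all groups, with no effect of slide or Y-linked signal. In the data 40.4% of genes were called, so these numbers need not hold there. The number of arrays limits the precision.

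Named genes are the 12 largest rises and falls with a symbol and groups apart, reference genes, up to 3 called members of each list with the largest change, the 6 smallest p of the difference in each direction, and, among genes well above background on all 6 arrays, the 5 largest SD in each group. The members, lists and tests were chosen with earlier results of these data known. Alternatives changed the scaling, background correction, filter, probe choice, prior, slide, replicate block, Y-linked signal and each left-out array. Some genes that this rule names are not reported here.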

Additional observations from a re-analysis of the deposited data

Results flagged for a closer look

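The test of the difference in response between genotypes passed its threshold for Sema4d, with a log2 change larger by 3.08 in FSAP-/- than in wild-type livers, and for LOC100041034, larger by 1.78. No sham FSAP-/- array was well above background for Sema4d, so the size of its difference rests on values at background, and with normexp background correction the differences were 1.32 and 1.30. For LOC100041034 all 3 ligated FSAP-/- mice lay above all 3 sham FSAP-/- mice. It was picked by a test on these same arrays, so that separation is no further result. The groups did not overlap for 48.4% of all genes tested. Sema4d entered the test through the ligated arrays only, so the direction of its change in FSAP-/- livers follows from the filter. Groups of 3 arrays were too small to be screened for single stray samples.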

How the results depend on the processing

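With slide as a fixed block, 4300 genes changed in FSAP-/- livers in place of 7494, 2040 rising and 2260 falling; under every other alternative these 3 counts stayed within 1.5 times the reported ones. Leaving out 1 of the 6 arrays at a time gave 6127 to 6851 changed genes, 2647 to 2917 rises and 3426 to 4025 falls, and 5152 of the 7494 genes were called in the same direction in all 6 of these fits. Same-numbered sham and ligated arrays deviated from their group means with correlations of 0.0248, 0.086 and 0.168. For differently numbered arrays the correlations lay between -0.201 and 0.0819. With 3 arrays per group these values cannot settle whether the numbers mark pairs. The labels name no pairs, and the numbers were not taken as pairs. With a replicate block, 7213 genes changed, 3010 rising and 4203 falling, and no gene differed between genotypes, against 2 without the block.

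The number of genes whose response differed between genotypes was 400 with the Y-linked level as a covariate, 307 without the arrays with Y-linked signal, 16 with normexp background correction, 7 with each array scaled to its median, 7 with the mean of all probes, 5 among genes well above background on all 6 arrays, 4 with a trended prior, and 0 with no filter. It ranged from 0 to 45 without single arrays. The cause was not tested.

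The sign turned for 5 named genes, in 12 combinations of gene and setting, and no value with the turned sign passed the threshold. Cyp3a11 changed by -0.03 with the Y-linked covariate, -0.08 with median scaling, -0.22 with the mean of all probes, -0.12 without ligated mouse 1 and -0.28 without sham mouse 2, within a range of -0.28 to 0.48 over single arrays left out. Cyp7a1 changed by 0.09 without sham mouse 2, in a range of -0.84 to 0.09. Slc10a1 changed by 0.23 under quantile normalization, 0.22 in the deposited value table and 0.05 without the arrays with Y-linked signal. Rpl10 changed by 0.17 under quantile normalization and in the deposited table, and Vcan by 1.01 with the mean of all probes. Fluorescence near background limits genes that are low in 1 group, and 3 mice per group cannot give an exact permutation p under 0.1.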
